A study of Mus musculus with 16 samples.

Results

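The genes described here are 9 endothelial genes of blood coagulation and fibrinolysis, namely *F3*, *Tfpi*, *Thbd*, *Procr*, *F2r*, *Plat*, *Plau*, *Plaur* and *Vwf*, taken by name from a table of 55414 genes in cultured mouse lung endothelial cells (MLECs). All 9 are listed once in the table and all 9 had enough reads to be tested, among 15693 tested genes. The names were chosen with earlier results of these data known.

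MLECs came from 4 independent isolations from mice carrying floxed *Eng* (Eng fl/fl), Rosa26-driven Cre that responds to tamoxifen (CreERT2) and the Immorto transgene, and were selected on CD31 and ICAM2 beads, so the cells of all groups share these alleles. *Eng* encodes endoglin, the co-receptor of the endothelial ligands BMP9 and BMP10. Cells given 4-OH-tamoxifen in culture are the KO cells and vehicle-treated cells of the same isolation are the Ctrl cells (labelled WT), so loss of *Eng* and exposure to the drug cannot be told apart. Ctrl cells then received PBS or BMP9 in complex with monomeric soluble endoglin (sENG(M):BMP9), and KO cells received PBS or prodomain-bound BMP9 (pro:BMP9), each dosed by its growth factor domain (0.2 ng/ml) for 90 min after serum starvation. Genotype and ligand form therefore coincide, and their parts in any difference between ligand-treated KO and Ctrl cells, or between the ligand responses of both, cannot be told apart. Per the study's methods, soluble endoglin was added in large excess over BMP9 to keep the complex stable. No group received soluble endoglin alone, so its part in changes of treated Ctrl cells cannot be told apart from that of BMP9. The 4 groups hold 4 libraries each, and the replicate number of the labels was taken as the isolation. In all groups the growth medium held interferon-γ at 20 U/ml, SB431542 (an inhibitor of TGF-β type I receptors) at 1 μM and the anticoagulant heparin at 100 μg/ml. Per the study's methods the first pair was left out once cells were seeded for assays, while the starvation medium still held heparin.

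Library totals ran from 14869115 to 17242117 counts, and mitochondrial genes took between 1.20% and 1.83% of them. *Eng* was at 460 ± 93.6 CPM (read counts scaled to library size, TMM-normalised, mean ± SD, n = 4) in PBS-treated Ctrl cells and at 51.2 ± 8.37 CPM in PBS-treated KO cells. With ligand it was at 641 ± 104 CPM in Ctrl cells and at 120 ± 7.22 CPM in KO cells. The BMP9 target *Id1* had a log2 fold change with ligand of 2.51 in Ctrl cells and 2.55 in KO cells. All 10 endothelial markers checked were detected in every library, with summed levels of 3452 to 7579 CPM. The 10 fibroblast and mural markers summed to between 98.5 and 814 CPM and the 6 mesothelial markers to between 12.7 and 475 CPM, and isolation 2 stood below the others in both sums. In such bulk samples, fewer cells of a type and less RNA per cell cannot be told apart.

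Blood clotting starts when tissue factor, the product of *F3*, meets plasma factor VII, and it leads through factor X to thrombin and fibrin. Resting endothelium holds this back in several ways. TFPI (from *Tfpi*) blocks the tissue factor complex, and thrombomodulin (*Thbd*) binds thrombin and, together with the endothelial protein C receptor (*Procr*), turns it into an activator of protein C, which inactivates clotting cofactors. Thrombin also signals to the cell through PAR1 (*F2r*), which it opens by cutting its extracellular end. Clots are dissolved by plasmin, which tissue-type (*Plat*) and urokinase-type (*Plau*) plasminogen activators make from plasminogen, the second of them on its receptor uPAR (*Plaur*). Von Willebrand factor (*Vwf*), stored in the Weibel-Palade bodies of endothelial cells, tethers platelets and carries factor VIII.

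The promoters of *F3*, *F2r* and *Procr* are shown because their transcripts moved with ligand and because the RefSeq promoter table used here (build GRCm38.p6) holds them. It holds windows for 5 of the 9 genes, namely *F3*, *F2r*, *Procr*, *Plaur* and *Tfpi* (the last with 2 starts), and *Thbd*, *Plat*, *Plau* and *Vwf* are not among them. Each line gives the 250 bases before the annotated start, 5′ to 3′ on the strand of the gene. Capitals mark TGAGTCA, the letters AP-1 factors are known to bind, or GGCTCC, a GC-rich element known from BMP response elements, on either strand (reverse complements TGACTCA and GGAGCC).

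F3 (chr3:121723287-121723536, plus strand): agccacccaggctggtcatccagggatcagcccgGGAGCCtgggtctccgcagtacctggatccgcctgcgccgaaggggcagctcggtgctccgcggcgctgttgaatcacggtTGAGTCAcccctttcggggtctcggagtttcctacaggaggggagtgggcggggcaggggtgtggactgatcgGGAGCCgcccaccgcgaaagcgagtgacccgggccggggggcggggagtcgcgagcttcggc
F2r (chr13:95618467-95618716, minus strand): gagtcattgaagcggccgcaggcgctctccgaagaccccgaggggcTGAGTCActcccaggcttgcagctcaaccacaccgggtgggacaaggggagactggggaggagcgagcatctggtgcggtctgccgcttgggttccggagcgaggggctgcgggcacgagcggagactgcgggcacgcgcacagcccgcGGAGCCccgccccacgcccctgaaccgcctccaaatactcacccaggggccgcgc
Procr (chr2:155750967-155751216, plus strand): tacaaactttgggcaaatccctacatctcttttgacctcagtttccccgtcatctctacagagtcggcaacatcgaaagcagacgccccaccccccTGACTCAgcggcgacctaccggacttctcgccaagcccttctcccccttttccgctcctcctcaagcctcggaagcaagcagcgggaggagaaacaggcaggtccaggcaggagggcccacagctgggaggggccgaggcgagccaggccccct

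TGAGTCA stood in 4 of the 6 windows of these genes (those of *F3*, *F2r*, *Procr* and *Plaur*) and in 4.46% of all 32851 promoters of the table. In *F3* it lay 135 to 129 bases before the start and ran into a CACCC, in *F2r* 204 to 198 bases before it, and in *Procr* 154 to 148 bases before it. GGCTCC stood in the windows of *F3* (2 matches), *F2r* and *Plaur*, and in 26.0% of all promoters. CACCC, the core of KLF sites, stood in 5 of the 6 windows and in 52.0% of all promoters. The letters GGCGCC (9.59% of all promoters) and TGACGTCA (1.55%) were in none of the 6 windows. The *F3* and *F2r* windows were 70.0% and 70.8% G and C, against a median of 52.4% over all promoters. These matches describe letters only.

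Ligand treatment moved genes of this group in both directions in both kinds of cells. Tissue factor transcripts doubled and PAR1 transcripts rose, while thrombomodulin and urokinase transcripts fell. With sENG(M):BMP9 in Ctrl cells, 5 of the 9 genes passed an adjusted p under 0.05 (quasi-likelihood test of edgeR, blocked by isolation, Benjamini-Hochberg adjustment over all tested genes), where 9.69% of all tested genes did. Of these, *F3* and *F2r* were higher (background 5.86%) and *Thbd*, *Plau* and *Procr* lower (background 3.83%). With pro:BMP9 in KO cells, 4 of the 9 passed, where 5.59% of all tested genes did. These were *F3* and *F2r* again as higher (background 3.68%) and *Thbd* and *Plau* as lower (background 1.92%). The 9 genes had a median log2 fold change of -0.11 with sENG(M):BMP9 and -0.06 with pro:BMP9, near the medians of all tested genes (-0.01 and 0.00), since the group moved both ways. Without the replicate block, which puts the differences between isolations into the spread, none of the 9 genes passed in either comparison, and 167 and 91 genes passed in all. Of the 10 endothelial markers, 2 were called higher in Ctrl cells and 1 in KO cells. None of the fibroblast, mural, mesothelial, epithelial, leukocyte or platelet markers tested passed in either ligand comparison.

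**Figure D1:**
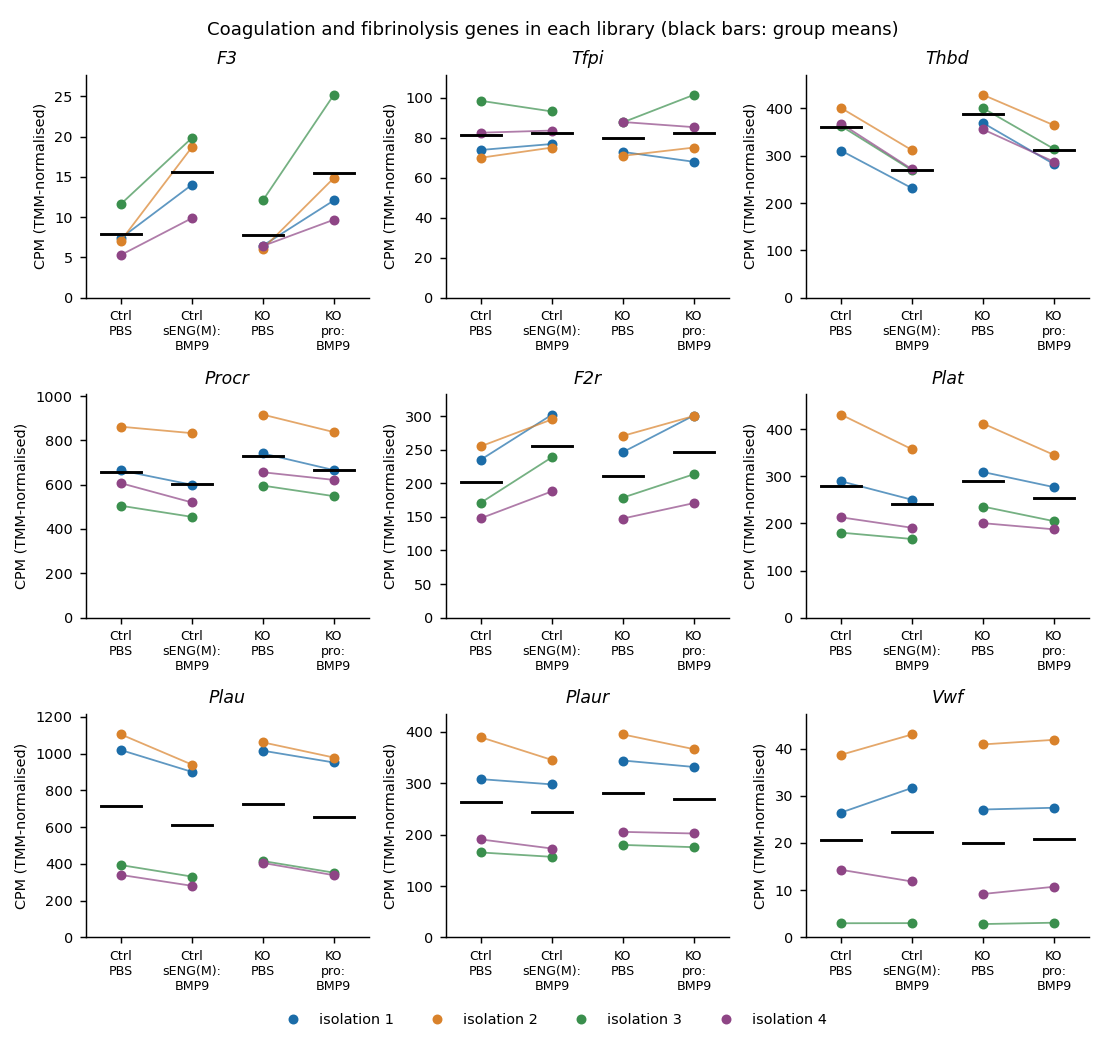
TMM-normalised CPM (y axes, from 0) of the 9 genes in the 16 libraries, by group (x axes). Each point is 1 library, coloured by isolation, lines join the PBS-treated and ligand-treated library of an isolation and genotype, and black bars are group means. *F3* and *F2r* rise along all 8 lines and *Thbd* falls along all 8, while the isolations of *Plau*, *Plaur* and *Vwf* stand far apart.

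*F3* (ENSMUSG00000028128, GRCm39 chromosome 3, 121517186 to 121528697, 6 exons), the gene of tissue factor, had the largest change with ligand of the 9 genes in both kinds of cells. In Ctrl cells of isolations 1 to 4 it was at 7.41, 7.09, 11.6 and 5.32 CPM in PBS and at 14.02, 18.7, 19.8 and 9.88 CPM after sENG(M):BMP9. The KO libraries were at 6.47, 6.08, 12.1 and 6.43 CPM in PBS and at 12.1, 14.9, 25.2 and 9.68 CPM after pro:BMP9. Every isolation rose in both, by between 0.58 and 1.38 on the log2 scale, although the ranges of PBS-treated and ligand-treated libraries overlapped because isolation 3 was high and isolation 4 low. The log2 fold change was 1.00 in Ctrl cells (standard error, SE, 0.129, adjusted p = 2.35e-05), a 1.997-fold rise. With pro:BMP9 in KO cells it was 0.96 (SE 0.130, adjusted p = 6.38e-05), a 1.95-fold rise. *F3* was a low transcript throughout, with 88 to 388 counts per library and place 9166 of 15693 by mean CPM. Isolation 2 gave the largest *F3* differences of any isolation (1.38 in Ctrl and 1.27 in KO cells).

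*Tfpi* (ENSMUSG00000027082, chromosome 2, 84263199 to 84307119), the gene of the inhibitor that acts on the tissue factor complex, did not pass the threshold with either ligand. It was at 81.3 ± 12.6 CPM in PBS and 82.2 ± 8.18 CPM after sENG(M):BMP9 in Ctrl cells, and at 79.9 ± 9.18 and 82.5 ± 14.5 CPM in KO cells before and after pro:BMP9 (mean ± SD, n = 4). The log2 fold changes of 0.02 and 0.04 had 95% intervals from -0.08 to 0.13 and from -0.07 to 0.15, so a change of the size seen for *F3* lies outside both. The isolations moved in different directions. Set per kilobase of gene length, tissue factor transcripts made 20.8 ± 4.89 per 100 *Tfpi* transcripts in PBS-treated Ctrl cells and 41.2 ± 11.96 after sENG(M):BMP9. In KO cells this ratio went from 20.8 ± 6.14 to 39.8 ± 12.04, and it was higher with ligand in 4 of 4 isolations of each genotype.

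*Thbd* (ENSMUSG00000074743, chromosome 2, 148246386 to 148250108, a gene whose coding transcript is 1 exon) encodes thrombomodulin and had the steepest fall of the 9 genes. In Ctrl cells of isolations 1 to 4 it was at 311, 401, 363 and 368 CPM in PBS and at 231, 311, 269 and 271 CPM after sENG(M):BMP9. Among KO libraries it was at 369, 428, 400 and 356 CPM in PBS and at 282, 364, 314 and 287 CPM after pro:BMP9. All 4 isolations fell in each genotype, and by similar amounts, between -0.44 and -0.36 on the log2 scale in Ctrl cells and between -0.39 and -0.23 in KO cells. The log2 fold change was -0.41 in Ctrl cells (SE 0.0439, adjusted p = 2.11e-06), where the level fell by 25.0%. With pro:BMP9 in KO cells it was -0.32 (SE 0.0438, adjusted p = 7.27e-05), where the level fell by 19.9%. The ranges of PBS-treated and ligand-treated libraries overlapped narrowly in Ctrl cells, by 1 library of each, and also in KO cells.

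*Procr* (ENSMUSG00000027611, chromosome 2, 155593037 to 155597391, 4 exons) encodes the protein C receptor that works beside thrombomodulin, and it was among the most abundant of these genes. It was at 664, 862, 505 and 607 CPM in PBS-treated Ctrl cells of isolations 1 to 4 and at 600, 833, 455 and 520 CPM after sENG(M):BMP9. Its fall was small beside the spread between isolations but was shared by all 4. The log2 fold change was -0.14 in Ctrl cells (SE 0.0397, adjusted p = 0.0276). In KO cells it was -0.12 (SE 0.0397, adjusted p = 0.101), lower in 4 of 4 isolations but not past the threshold. The call in Ctrl cells was also lost when isolation 1, 3 or 4 was left out, where the log2 fold change stayed between -0.17 and -0.12 over all alternatives.

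*F2r* (ENSMUSG00000048376, chromosome 13, 95738311 to 95754995, 2 exons), the gene of the thrombin receptor PAR1, rose with both ligands. In Ctrl cells of isolations 1 to 4 it was at 235, 255, 171 and 148 CPM in PBS and at 302, 295, 239 and 188 CPM after sENG(M):BMP9. The KO values were 247, 271, 179 and 148 CPM in PBS and 301, 300.3, 214 and 171 CPM after pro:BMP9. Each isolation rose in each genotype, while isolations 1 and 2 stood above isolations 3 and 4 under the same treatment. The log2 fold change was 0.35 in Ctrl cells (SE 0.0426, adjusted p = 1.12e-05), a rise of 27.4%. For KO cells it was 0.23 (SE 0.0427, adjusted p = 0.00201), a rise of 16.9%. Without isolation 1, *F2r* did not pass in KO cells.

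**Figure D2:**
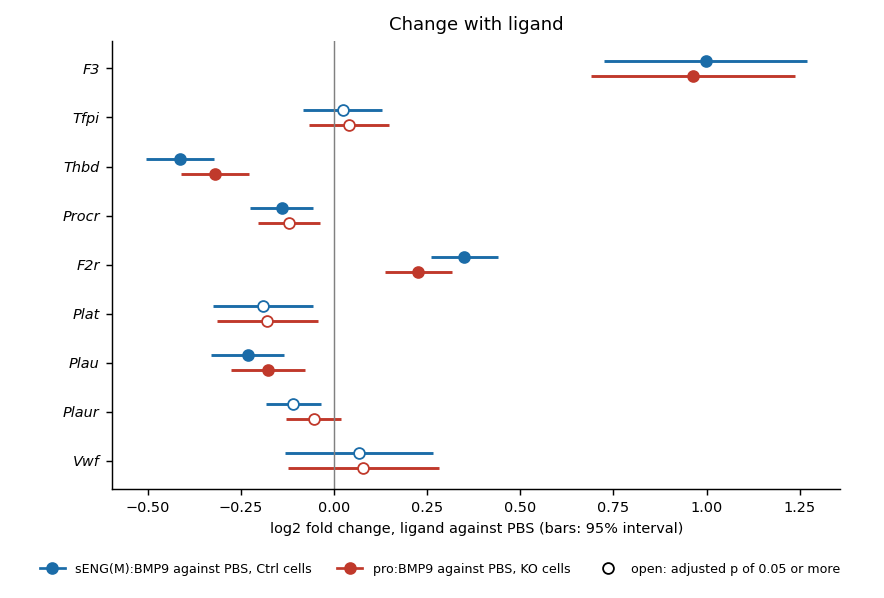
Log2 fold change with ligand (x axis) of the 9 genes (y axis) in Ctrl cells (blue) and KO cells (red), with 95% intervals from edgeR's quasi-likelihood fit as bars. Filled points passed an adjusted p under 0.05. *F3* and *F2r* lie right of 0 and *Thbd* and *Plau* left of it in both genotypes, and the interval of each gene in KO cells overlaps the one in Ctrl cells.

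*Plau* (ENSMUSG00000021822, chromosome 14, 20886728 to 20893453, 11 exons), the gene of the urokinase-type activator, fell with both ligands. Its PBS-treated Ctrl libraries were at 1019, 1104, 393 and 340 CPM in isolations 1 to 4, and those after sENG(M):BMP9 at 900.2, 940, 331 and 281 CPM. The KO libraries of these isolations went from 1015, 1061, 415 and 405 CPM in PBS to 951, 978, 352 and 338 CPM after pro:BMP9. Isolations 1 and 2 held more than 2-fold the level of isolations 3 and 4 under each treatment, and within every isolation the ligand-treated library was the lower one. The log2 fold change was -0.23 in Ctrl cells (SE 0.0468, adjusted p = 0.00212), where the level fell by 14.9%. In KO cells it was -0.18 (SE 0.0468, adjusted p = 0.0270), a call that was lost when isolation 2 or 3 was left out.

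*Plat* (ENSMUSG00000031538, chromosome 8, 23247743 to 23272860, 14 exons), the gene of the tissue-type activator, was at 279 ± 112 CPM in PBS and 241 ± 84.99 CPM after ligand in Ctrl cells. It was at 290 ± 93.5 and 254 ± 72.5 CPM in KO cells (± SD, n = 4 in each group). The changes on the log2 scale, -0.19 in Ctrl cells (SE 0.0643, adjusted p = 0.0748) and -0.18 with pro:BMP9 (SE 0.0643, adjusted p = 0.144), were close to those of *Plau* but did not pass. *Plat* was lower with ligand in 4 of 4 isolations of each genotype, and it passed in 5 of 11 alternatives in Ctrl cells and in 3 of 11 in KO cells. *Plaur* (ENSMUSG00000046223, chromosome 7, 24161909 to 24175393, 7 exons), the gene of the urokinase receptor, stood at a log2 fold change of -0.11 with sENG(M):BMP9 (SE 0.0353, adjusted p = 0.0578) and -0.06 with pro:BMP9 (SE 0.0352, adjusted p = 0.567). It too was lower in all 4 isolations of each genotype.

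Tissue factor starts thrombin formation and thrombomodulin diverts thrombin to protein C, so their transcripts were also set side by side as a ratio. Per kilobase, *F3* made 3.51, 2.61, 4.73 and 2.13 per 100 *Thbd* transcripts in PBS-treated Ctrl cells of isolations 1 to 4, and 8.93, 8.84, 10.9 and 5.36 after sENG(M):BMP9. Among KO libraries the ratio was 2.58, 2.09, 4.45 and 2.66 in PBS and 6.30, 6.01, 11.8 and 4.97 after pro:BMP9. Every ligand-treated library was thus above every PBS-treated one. The ratio rose by a factor of 2.66 in Ctrl cells (2.30 to 3.39 in single isolations) and 2.43 in KO cells (1.86 to 2.87). *F3* and *Thbd* were joined in a ratio after their separate changes were known, and no test is given for it. These are ratios of transcripts, and protein or activity was not measured.

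**Figure D3:**
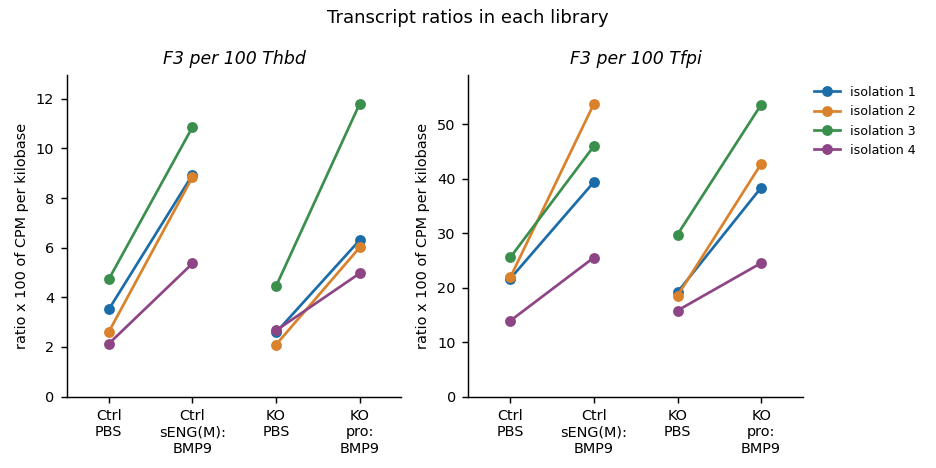
Ratio of transcript levels per kilobase of gene length, times 100, for *F3* to *Thbd* (left) and *F3* to *Tfpi* (right), in each library (y axes from 0). Lines join the PBS-treated and ligand-treated library of an isolation. The left ratio is between 2.09 and 4.73 in PBS and between 4.97 and 11.8 with ligand, and the right one rises along all 8 lines.

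*Vwf* (ENSMUSG00000001930, chromosome 6, 125523737 to 125663642, 52 exons) did not pass with either ligand. In Ctrl cells of isolations 1 to 4 it was at 26.5, 38.7, 3.0 and 14.3 CPM in PBS and at 31.7, 43.0, 3.02 and 11.8 CPM after sENG(M):BMP9. KO libraries were at 27.1, 40.9, 2.83 and 9.20 CPM in PBS and at 27.5, 41.9, 3.11 and 10.7 CPM after pro:BMP9. The isolations kept the same order in every group, and within an isolation the 4 libraries lay far closer together than the isolations did. The log2 fold changes were 0.07 (95% interval -0.13 to 0.27) in Ctrl cells and 0.08 (-0.12 to 0.28) in KO cells.

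Loss of *Eng* in PBS-treated cells was not accompanied by a called change in any of these genes. In edgeR's quasi-likelihood test 0 of the 9 passed an adjusted p under 0.05, where 0.0191% of all tested genes did. An unadjusted p under 0.05 was found for 3 of the 9 (*Procr*, *Plaur* and *Thbd*) and for 1071 of all 15693 tested genes. DESeq2 with the isolation in the model called none of the 9, and quantile normalisation with ComBat and DESeq2 called 2. *Procr* was at 659 ± 150 CPM in Ctrl and 727 ± 139 CPM in KO cells (n = 4 each, ± SD), which is 0.15 higher on the log2 scale (SE 0.0396, adjusted p = 0.393), and KO cells were higher in 4 of 4 isolations. *Plaur* had a difference of 0.10 (95% interval 0.03 to 0.18, adjusted p = 0.532), also higher in 4 of 4. *Thbd* had one of 0.11 (0.02 to 0.20, adjusted p = 0.637), higher in 3 of 4. The log2 fold changes of the 9 genes ran from -0.12 for *Vwf* to 0.15 for *Procr*, and for *F3* the interval was wide (-0.31 to 0.28).

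Between ligand-treated KO and Ctrl cells, again 0 of the 9 genes passed in edgeR's test, where 0.255% of all tested genes did. The unadjusted p was under 0.05 for 4 of the 9 and for 1454 of all 15693 tested genes. *Thbd* averaged 271 ± 32.7 CPM in the sENG(M):BMP9 libraries of Ctrl cells and 312 ± 37.6 CPM in the pro:BMP9 libraries of KO cells, 0.20 higher on the log2 scale (SE 0.0440, adjusted p = 0.0573). *Plaur* had a log2 fold change of 0.16 (SE 0.0353, adjusted p = 0.0630), *Procr* one of 0.17 (SE 0.0397, adjusted p = 0.0688) and *Plau* one of 0.12 (SE 0.0468, adjusted p = 0.366). These 4 genes were higher in KO cells in 4 of 4 isolations. *F3*, *Tfpi*, *Vwf*, *F2r* and *Plat* lay between -0.11 and 0.09. *Thbd*, *Procr* and *Plaur* sit just outside the threshold: DESeq2 with the isolation in the model called all 3, and so did quantile normalisation with ComBat and DESeq2. Without the filter on low counts *Plau* was called as well, *Thbd* was called without isolation 4, and *Procr* without isolation 2. Of 11 alternatives, 4 called *Thbd*, 4 called *Procr* and 3 called *Plaur*, so most did not. DESeq2, quantile normalisation with ComBat and DESeq2, and the fit without the filter called 141, 534 and 517 genes in all, against 40 in the main fit.

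**Figure D4:**
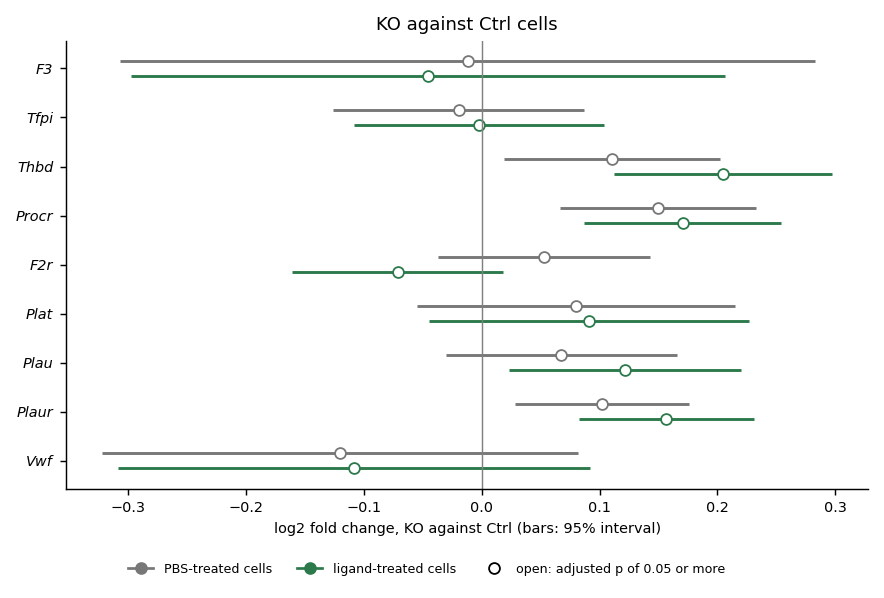
Log2 fold change of KO against Ctrl cells (x axis) for the 9 genes (y axis), in PBS-treated cells (grey) and ligand-treated cells (green), with 95% intervals as bars. All points are open, since none passed an adjusted p under 0.05, and *Thbd*, *Procr* and *Plaur* lie right of 0 with intervals that do not reach it in either condition.

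How far the ligand response of KO cells differed from that of Ctrl cells was tested in the same fit (as KO minus Ctrl), because a change called in one genotype and not in the other is not shown to differ. By edgeR, 0 of the 9 genes and 0% of all tested genes passed, none of the 9 had an unadjusted p under 0.05 (565 of all tested genes did), and DESeq2 called none of the 9 either. *F2r* had the lowest value, -0.12 on the log2 scale (95% interval -0.25 to 0.00, adjusted p = 1.00), with a smaller rise in KO cells in 4 of 4 isolations. *Thbd* had the highest, 0.09 (-0.04 to 0.22), with a smaller fall in KO cells in 4 of 4 isolations. For *F3* the interval ran from -0.42 to 0.35, a width that leaves moderate differences in either direction undetectable here. For *Procr*, called only in Ctrl cells, the difference was 0.02 (-0.10 to 0.14).

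The isolation from which the cells came separated most of these genes further than ligand or genotype did. All 9 differed between the 4 isolations at an adjusted p under 0.05, as did 69.7% of all tested genes. The ratio of the highest to the lowest isolation mean was 13.7 for *Vwf*, 2.99 for *Plau*, 2.21 for *Plaur*, 2.20 for *F3*, 1.96 for *Plat*, 1.71 for *F2r*, 1.64 for *Procr*, 1.31 for *Tfpi* and 1.26 for *Thbd*. *Thbd* therefore moved about as far with ligand as between isolations, while *Vwf* ranged from 2.99 ± 0.121 CPM in isolation 3 to 41.1 ± 1.83 CPM in isolation 2 (mean ± SD of 4 libraries). Isolation 2 was the highest for *Plat*, *Plau*, *Plaur*, *Thbd*, *Procr*, *Vwf* and *F2r*. For *Plat*, *Plau*, *Plaur* and *Vwf*, every library of isolations 1 and 2 was above every library of isolations 3 and 4, and for *Tfpi* every one was below. *F3* and *Tfpi* were highest in isolation 3.

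Marker levels also differed between isolations. The summed endothelial markers were at 7492 to 7579 CPM in isolation 2, 5706 to 6478 in isolation 1, 5212 to 5544 in isolation 4 and 3452 to 3740 in isolation 3. The isolation means of *Vwf*, *Procr*, *Plaur* and *Plat* had the same order, though those of *Plat* in isolations 4 and 3 were almost equal (198 and 197 CPM). Those of *Plau*, *F2r*, *Thbd*, *F3* and *Tfpi* had other orders, each with isolation 3 above isolation 4. Single endothelial markers did not all keep the order of the sum. *Pecam1*, *Erg* and *Emcn* were higher in isolation 4 than in isolation 1, and *Kdr* and *Cldn5* higher in isolation 3 than in isolation 4. The summed fibroblast and mural markers were lowest in isolation 2 (98.5 to 114 CPM), and stood at 591 to 786 in isolation 1, 708 to 814 in isolation 3 and 414 to 640 in isolation 4. Mesothelial markers were at 12.7 to 14.7 CPM in isolation 2, 40.8 to 49.1 in isolation 4, 223 to 251 in isolation 3 and 299 to 475 in isolation 1. The 6 leukocyte markers summed to between 37.9 and 54.2 CPM, most of it *Cd68* (mean 34.2 CPM), with *Lyz2* at 48 to 233 counts and *Csf1r* at 16 to 92 counts per library, while *Ptprc*, *Adgre1* and *Itgam* had at most 6 counts in any library. The 5 epithelial markers summed to between 0.196 and 4.09 CPM, most of it *Cdh1* (mean 1.68 CPM), while *Sftpc* had no count. Platelet and megakaryocyte markers (5 genes) summed to between 12.3 and 31.1 CPM, and were highest in isolation 4 (26.3 to 31.1 CPM). Most of that sum was *Itga2b*, with 154 to 436 counts per library. The part of these marker levels in the differences between isolations was not tested.

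**Figure D5:**
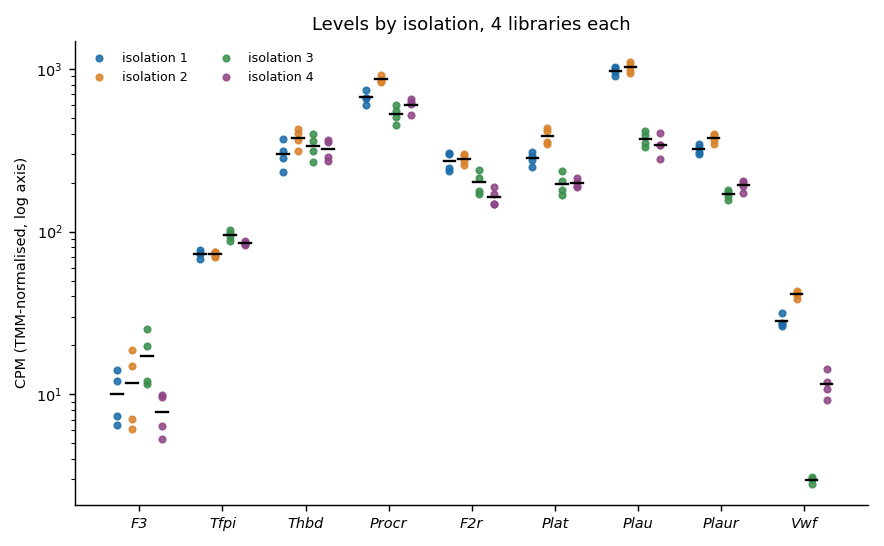
TMM-normalised CPM (y axis, log scale) of the 9 genes in the 4 libraries of each isolation, with black bars at the isolation means. *Vwf* spreads from 2.99 CPM in isolation 3 to 41.1 CPM in isolation 2, while *Thbd* and *Tfpi* stay within 1.31-fold between isolation means.

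Levels of different genes can be set side by side only per length. In PBS-treated Ctrl cells, *Procr* was at 325 ± 73.9 and *Plau* at 302 ± 170 CPM per kilobase of gene length (mean ± SD, n = 4), followed by *Plaur* at 101 ± 40.0 and *Thbd* at 96.8 ± 9.99. Then came *F2r* at 60.7 ± 15.3, *Plat* at 44.6 ± 17.9, *Tfpi* at 14.9 ± 2.31, *F3* at 3.11 ± 1.06 and *Vwf* at 1.28 ± 0.958. Neighbours in this order overlapped over the 4 libraries, except that *Thbd* stood clear of *F2r*, *Plat* clear of *Tfpi*, and *Tfpi* clear of *F3*. Within isolations, *Plau* was still above *Plaur*, *F2r* above *Plat* and *F3* above *Vwf* in 4 of 4. *Procr* was above *Plau*, and *Plaur* above *Thbd*, in only 2 of 4. After sENG(M):BMP9, *F2r* at 76.8 ± 16.04 and *Thbd* at 72.7 ± 8.79 changed places with overlapping ranges, and every *F3* library was above every *Vwf* library.

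Beyond these 9 genes, a list of 51 further genes of coagulation and fibrinolysis, compiled from general knowledge, was read in the same fits. Of the 51, 26 had enough counts to be tested, and the other 25 had at most 9 counts in any library. Of these, 10 had no count at all, among them *F9*, *Fga* and *Plg*, genes of plasma factors made by the liver. In Ctrl cells 4 of the 26 passed, 3 higher and 1 lower, and in KO cells 1 passed, which was higher, where 9.69% and 5.59% of all tested genes passed, so these counts say nothing particular about the list. The 26 had a median log2 fold change of 0.01 with sENG(M):BMP9 and 0.01 with pro:BMP9, against -0.01 and 0.00 over all tested genes. Of 6 tested coagulation factors and genes of their processing and of 4 tested anticoagulants, none passed by edgeR's test in either ligand comparison. *Pros1*, the gene of the protein C cofactor protein S, was at 490 CPM in PBS and 487 CPM after ligand in Ctrl cells (95% interval of the log2 fold change -0.09 to 0.07).

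*F2rl1*, the gene of the protease-activated receptor PAR2, fell in Ctrl cells by 0.63 on the log2 scale (SE 0.126, adjusted p = 0.00186), opposite to *F2r*, with 3.58 to 85.1 CPM over the Ctrl libraries. In KO cells it had -0.40 (SE 0.122, adjusted p = 0.0685), lower in 3 isolations and higher in 1. That was isolation 4, where *F2rl1* was at only 3.36 to 4.71 CPM and its log2 difference was -0.08 in Ctrl and 0.47 in KO cells. *Selp*, the gene of P-selectin, which is stored with von Willebrand factor, rose in Ctrl cells (0.16, SE 0.0369, adjusted p = 0.00643) and in KO cells (0.22, SE 0.0369, adjusted p = 8.01e-04), while *Vwf* itself did not pass. *Rab27a*, whose product works in Weibel-Palade body release, rose in Ctrl cells (0.38, SE 0.0819, adjusted p = 0.00372), and so did *Thbs1*, the gene of thrombospondin-1 (0.22, SE 0.0644, adjusted p = 0.0396). In KO cells *Rab27a* had 0.18 and *Thbs1* 0.08, and neither passed. Among these calls in Ctrl cells, those of *F2rl1* and *Selp* were lost without isolation 2, that of *Rab27a* without isolation 2 or 4, and that of *Thbs1* without isolation 1 or 4. Between KO and Ctrl cells, 0 of the 26 passed by edgeR in PBS or with ligand. The unadjusted p of that test was under 0.05 for 1 and 2 of the 26, against 1071 and 1454 of all 15693 tested genes. DESeq2 with the isolation in the model called none of the 26 in either.

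For the 5 genes called with ligand, the tested genes with the most similar pattern were sought by Pearson's r over the 16 libraries after the isolation means were removed. These values are descriptions, since all points share the libraries and the ligand contrast. *Thbd* was most like *Rapgef5* (r = 0.981), *Adm* (0.967) and *Txnip* (0.966). *F3* was most like *Klhl21* (0.973), *Map2k3* (0.973) and *Ddit4* (0.973). *F2r* was most like *Gm6277* (0.983) and *Jup* (0.978). The genes nearest to *Plau* were *Slc30a4* (0.949), *Dll4* (0.947), which encodes a Notch ligand, and *Trim16* (0.945), and those nearest to *Procr* were *Dapk3* (0.976), *Pttg1ip* (0.947) and *Carhsp1* (0.922).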

How the data were processed

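RNA sequencing was carried out on 16 MLEC libraries. The authors deposited raw read counts per gene without normalisation. According to the study's methods and the submitters' processing notes, stranded paired-end reads were aligned to GRCm39 with HISAT2 2.0.5, and featureCounts 1.5.0-p3 is named among the tools; the annotation release and strand setting are not given in the sources used here. *F3*, *Plau* and *Vwf* overlap non-coding genes on the opposite strand in GENCODE, whose reads could not be told apart if strand was not used.

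Groups followed the labels. Counts were analysed in R 4.3.3 with edgeR 4.0.16: filterByExpr by group (minimum count 10, minimum total 15; 15693 genes), TMM, and 1 quasi-likelihood fit of all 16 libraries with the isolation as a block, with Benjamini-Hochberg adjustment and a threshold of 0.05. The procedure was tested on simulated data with ligand effects of 0.5 and 1 on the log2 scale. Those of 0.5 were recovered at 86% in Ctrl and 91% in KO cells, and those of 1 at 100% in both. Smaller effects and effects of genotype were not simulated. Standard errors are the log2 fold change over the square root of F, and log2 differences within an isolation were taken after adding a prior count of 2. The study used 4 isolations, each as Ctrl and KO cells, and the replicate number, which follows the prefix of the library names, was taken to name them. After group means were removed, same-numbered libraries correlated at 0.67 or more (24 pairs, mean 0.757), and pairs of different isolations at a mean of -0.251. That negative mean follows from removing the group means once same-numbered pairs correlate, so it adds nothing on the pairing. CPM are counts scaled by library size and TMM factor; levels between genes were divided by the deposited gene length. Libraries of a group differed by more than repeated sampling of 1 library. Counting error is largest for *F3* and *Vwf*.

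Named genes were the 9 members, up to 6 called genes of the further list per comparison, and the 3 most similar genes of each member called with ligand; *Eng*, *Id1* and *Smad6* are checks. Single genes that these rules would also name are not reported here, and the further list and its counts leave them out. Other genes are named as examples chosen after their values were seen. Members and lists were chosen with earlier results of these data known. The alternatives tried were DESeq2 1.42.0, leaving out the block, RLE size factors, 2 other filters, fits of 8 libraries, quantile normalisation with ComBat (sva 3.50.0) and DESeq2, and each isolation left out.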

Additional observations from a re-analysis of the deposited data

Results flagged for a closer look

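Of 72 sets of 4 values that were checked for a value far from the other 3 by Dixon's criterion (the 9 genes in 4 groups and in 4 comparisons within isolations), 3 were flagged, and chance flags about 1 set in 20. *F3* in PBS-treated KO cells was at 12.1 CPM in isolation 3, against 6.08 to 6.47 CPM in the other isolations. The log2 difference of *Plau* between ligand-treated KO and Ctrl cells was 0.27 in isolation 4, against 0.06 to 0.09 in the others. The log2 difference of *Thbd* with sENG(M):BMP9 in Ctrl cells was -0.36 in isolation 2, against -0.44 to -0.43 in the others, a smaller fall in the same direction.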

How the results depend on the processing

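*F3* and *Thbd* passed with both ligands, and *F2r* and *Plau* in Ctrl cells, under every alternative except the fit without the replicate block. Without the replicate block the ligand comparisons called 167 genes in Ctrl cells (0 of the 9, 0 of the 26 further genes) and 91 in KO cells (0 of the 9, 0 of the 26), and each comparison of KO with Ctrl cells called 1 gene; differences between isolations then count as spread. In that fit the differences of *Tfpi* between ligand-treated KO and Ctrl cells (0.0048) and in the responses of *F3* (0.0037) and *Vwf* (-0.0605) changed sign; none of them passed in any fit. Comparing KO with Ctrl cells, DESeq2 called 7 genes in PBS and 141 with ligand (3 of the 9). Without a filter on low counts 204 genes were called in PBS (1 of the 9) and 517 with ligand (4 of the 9, 1 of the 26), and 52 genes for the difference of responses; 2 of the 26 were then called with ligand in KO cells. Quantile normalisation, ComBat and DESeq2 called 1346 genes with ligand in KO cells, 169 between KO and Ctrl cells in PBS (2 of the 9, 1 of the 26), 534 with ligand (3 of the 9) and 17 for the difference of responses. Fits of only 8 libraries called 3 of the 26 with ligand in KO cells and 1 gene between KO and Ctrl cells in PBS. The cause of these shifts was not tested.

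With each isolation left out in turn, 573 to 745 genes were called with ligand in KO cells, 1 to 69 between KO and Ctrl cells in PBS and 6 to 175 with ligand (0 to 1 of the 9), and 1 to 4 of the 26 with ligand in Ctrl and 1 to 2 in KO cells. Small log2 differences that were not called changed sign. With ligand, *Tfpi* ran from -0.0004 to 0.0584 in Ctrl and from -0.0208 to 0.0779 in KO cells, and *Vwf* from -0.0318 to 0.1816 in Ctrl cells. Between KO and Ctrl cells in PBS, *Plat* ran from -0.0181 to 0.1331, *F3* from -0.0968 to 0.0434, *Tfpi* from -0.058 to 0.0316, and *Vwf* from -0.229 to 0.0416. With ligand, *F3* ran from -0.2029 to 0.0541 and *Tfpi* from -0.0476 to 0.0497. The difference of responses ran from -0.003 to 0.042 for *Plat*, -0.0202 to 0.0511 for *Procr*, -0.1598 to 0.0459 for *F3*, -0.0791 to 0.0713 for *Tfpi* and -0.1413 to 0.1292 for *Vwf*. Depth limits *F3* and *Vwf*, which had as few as 88 and 47 counts in a library.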
